A study of Mus musculus with 6 samples.

Results

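The data were read for 10 genes of one guidance system, chosen by symbol: the secreted class 3 semaphorins *Sema3a*, *Sema3b*, *Sema3c*, *Sema3e* and *Sema3f*, the neuropilins *Nrp1* and *Nrp2*, and the plexins *Plxna1*, *Plxna2* and *Plxnd1*. All 10 were found by symbol among the 24421 genes of the count table. RNA was sequenced from alveolar type II cells (AT2s), the surfactant-making cells of the lung alveolus, which were sorted by FACS for a lineage label from 6 mice. The 3 AT2CTRL mice were Sftpc-CreERT2/+; R26-tdTomato/+ and were 12, 16 and 12 weeks old for replicates 1, 2 and 3. The 3 AT2CAB mice were Sftpc-CreERT2/+; R26-tdTomato/R26-caBmpr1a and were 16, 12 and 12 weeks old. Tamoxifen switched on the tdTomato label in both groups, and in AT2CAB also *caBmpr1a*, which encodes BMPR1a, a type I receptor for BMPs, in a form that signals without ligand, so both groups carry the same Cre and label alleles. Cre was driven from *Sftpc*, and the label marks recombination of tdTomato and not of *caBmpr1a*, so AT2CAB libraries can include cells that do not express the active receptor. The comparison asks how these guidance genes stood in AT2s when BMP signaling was raised.

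Class 3 semaphorins are secreted proteins first known for turning growing axons away. Most of them bind a neuropilin, which has a short cytoplasmic tail, and the neuropilin holds them to a plexin, whose cytoplasmic part acts on small GTPases and through them on the cytoskeleton and on integrin adhesion. SEMA3E differs from the others in that it can bind PLXND1 without a neuropilin. Neuropilins also bind forms of VEGF, and furin-like convertases cut class 3 semaphorins and so change their activity. In the lung, semaphorins and neuropilins are known from vessel growth and from branching of the airway epithelium, and neuropilins and PLXND1 are prominent in endothelium.

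The 5 semaphorin genes lie in a pair of neighbourhoods on mm10, the build of the deposited counts. *Sema3a* (chromosome 5, 13396784 to 13603485), *Sema3e* (14025276 to 14256689) and *Sema3c* (17574816 to 17730267) stand on the plus strand of chromosome 5, with 421.8 kb between *Sema3a* and *Sema3e* and 3.32 Mb between *Sema3e* and *Sema3c*. *Sema3d*, another class 3 gene, ends 807.8 kb before *Sema3a*. *Sema3b* (chromosome 9, 107597674 to 107609241) and *Sema3f* (chromosome 9, 107681502 to 107710475) stand on the minus strand, 72.3 kb apart. *Nrp1* is on chromosome 8 (128359073 to 128505475, plus strand), *Nrp2* (62703317 to 62818692) and *Plxna2* (194619829 to 194816868) are on the plus strand of chromosome 1, and *Plxna1* (89316314 to 89362613) and *Plxnd1* (115954811 to 115995005) are on the minus strand of chromosome 6. Of the 10 genes, *Nrp1* alone shared exon bases with another annotated gene, 80 bases with *Mir1903*, and reads on those bases were left out of its counts.

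The promoters of *Sema3a*, *Sema3c*, *Sema3e* and *Plxnd1* are printed because these genes had their lowest and highest levels in the same libraries, and that of *Nrp1* because it did not follow them. Each is the 250 bases before the annotated start from RefSeq (GRCm38.p6, the assembly of mm10), written 5′ to 3′ on the strand of the gene. Capitals, absent in *Sema3a*, mark the letters GGCGCC or GGAGCC on either strand, GC-rich sequences of the kind bound by SMAD1 and SMAD5, the factors that BMPR1a activates.
Sema3a, chr5:13396534-13396783, plus strand: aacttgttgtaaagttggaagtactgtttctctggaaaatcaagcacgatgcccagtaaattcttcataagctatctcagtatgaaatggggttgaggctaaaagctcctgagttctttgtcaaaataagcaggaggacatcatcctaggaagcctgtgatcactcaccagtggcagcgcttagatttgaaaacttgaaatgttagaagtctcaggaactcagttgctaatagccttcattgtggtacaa
Nrp1, chr8:128358823-128359072, plus strand: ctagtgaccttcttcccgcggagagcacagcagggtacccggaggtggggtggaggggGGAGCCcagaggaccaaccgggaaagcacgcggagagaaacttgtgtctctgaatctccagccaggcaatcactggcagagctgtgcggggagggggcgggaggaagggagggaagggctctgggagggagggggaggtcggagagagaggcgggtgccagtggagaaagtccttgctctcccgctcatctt
Plxnd1, chr6:115995006-115995255, minus strand: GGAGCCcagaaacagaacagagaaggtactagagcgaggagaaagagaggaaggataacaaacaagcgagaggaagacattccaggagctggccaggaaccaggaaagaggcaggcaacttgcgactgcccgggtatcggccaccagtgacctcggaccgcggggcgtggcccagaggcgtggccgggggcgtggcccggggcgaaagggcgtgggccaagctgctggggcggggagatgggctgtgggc
Sema3c, chr5:17574566-17574815, plus strand: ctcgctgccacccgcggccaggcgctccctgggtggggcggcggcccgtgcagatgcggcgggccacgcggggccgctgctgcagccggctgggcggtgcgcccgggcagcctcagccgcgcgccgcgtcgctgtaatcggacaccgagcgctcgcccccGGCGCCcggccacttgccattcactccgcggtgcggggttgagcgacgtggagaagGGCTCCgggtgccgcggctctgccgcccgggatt
Sema3e, chr5:14025026-14025275, plus strand: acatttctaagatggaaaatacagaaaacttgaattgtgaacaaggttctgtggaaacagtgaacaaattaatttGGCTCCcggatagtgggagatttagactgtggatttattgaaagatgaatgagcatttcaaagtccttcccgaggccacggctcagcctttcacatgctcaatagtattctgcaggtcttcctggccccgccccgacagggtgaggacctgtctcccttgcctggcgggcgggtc

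RefSeq promoters were matched for 7 of the 10 genes, and *Sema3b*, *Sema3f* and *Plxna1* were not matched. GGAGCC was found in 4 of the 7 (*Nrp1*, *Plxnd1*, *Sema3c* and *Sema3e*) and in 26.0% of all 32851 promoters of this length. GGCGCC was found in 2 of the 7 (*Sema3c* and *Plxna2*) and in 9.6% of all promoters, and in no promoter of the 7 did it overlap GGAGCC. The letters GTCT, the shorter SMAD sequence, were found in 6 of the 7 (all but *Sema3c*) and in 82.9% of all promoters. The GC content differed widely, with 78.4% in *Sema3c*, 72.4% in *Nrp2*, 64.8% in *Plxnd1*, 64.4% in *Nrp1*, 62.8% in *Plxna2*, 48.0% in *Sema3e* and 40.8% in *Sema3a*, against a median of 52.4% over all promoters. These matches are a description of the letters in these windows.

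Each library held between 21554249 and 28440227 counts, so that 3 counts correspond to between 0.0976 and 0.138 CPM, which covers counting error only. CPM here stands for TMM-scaled counts relative to the library total, the usual CPM unit of edgeR. All 10 genes passed the expression filter, with at least 112 counts in every library. Sorted cells showed the AT2 label strongly, with 134533 to 198711 CPM summed over 20 AT2 markers, and *Id1* (log2 fold change 3.61, adjusted p = 0.0172), *Id3* (4.58, adjusted p = 0.00758) and *Smad6* (1.27, adjusted p = 0.0431), direct targets of BMP signaling, were called higher in AT2CAB by edgeR's test, while *Id2* (1.03, adjusted p = 0.138) and *Smad7* (1.33, adjusted p = 0.101) were not. DESeq2 called all 5 of these targets higher, with *Id2* at a DESeq2 adjusted p of 0.000194 and *Smad7* at 4.54e-06. For *Bmpr1a* itself the log2 fold change was -0.015 (edgeR adjusted p = 0.983), and reads of the transgene cannot be told apart from those of the gene in these counts. AT2CTRL replicate 1 and AT2CAB replicate 3 lay at 1 end of the first principal component (49.3% of the variance), at -36.7 and -73.5. The other 4 libraries were spread from 0.50 to 55.7. AT2CTRL replicate 1 and AT2CAB replicate 3 alone had reads on *Ddx3y*, *Eif2s3y*, *Kdm5d* and *Uty*, which are Y-linked (3935 and 4494 counts, against 0 in each of the others). Each log2 fold change of a named guidance gene is therefore given also in the 4 libraries that lack them, and as the ratio of AT2CAB replicate 3 to AT2CTRL replicate 1, which has 1 library on each side and no test.

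None of the 10 genes was called between the groups, where a call needs an adjusted p under 0.05 and a change of more than 2-fold. The same rule called 0.227% of the 16723 genes tested higher and 0.012% lower in AT2CAB. DESeq2, with 0.535% of its 22262 genes called higher and 0.112% lower, called none of the 10 either. At an unadjusted p under 0.05 from edgeR, *Sema3f* was the single gene of the 10 on the higher side, where 4.62% of all genes stood, and *Nrp1* the single gene on the lower side, where 5.05% stood. In 1 gene, *Sema3b*, all AT2CAB values lay above all AT2CTRL values, as in 7% of all genes, and in 1 gene, *Nrp1*, all lay below, as in 10.1% of all genes. These counts of 1 gene each are near the background shares. Fold changes were above 0 for 8 of the 10 genes and for 8160 of the 16723 genes tested. The median log2 fold change was 0.39 over the 10 and -0.0096 over all genes tested.

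**Figure D1:**
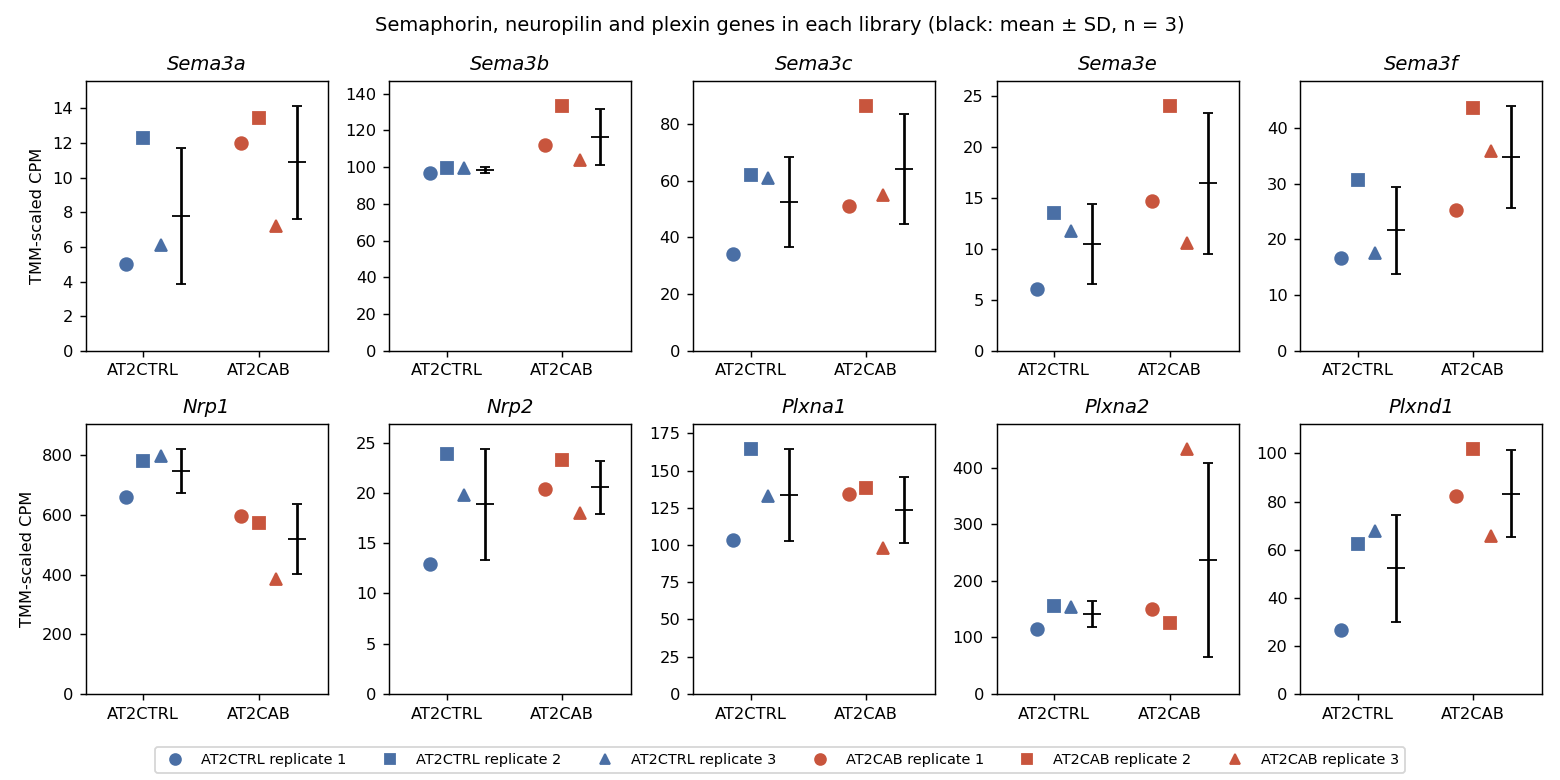
Level of each of the 10 genes in TMM-scaled CPM (vertical axis, from 0, its own scale in each panel) for the 3 AT2CTRL libraries (blue) and the 3 AT2CAB libraries (red), with replicate numbers as marker shapes and the mean ± SD in black. The groups overlap in 8 panels, all AT2CAB points lie above the AT2CTRL points for Sema3b and below them for Nrp1, and Plxna2 has 1 AT2CAB library at 433.7 CPM with the other 5 between 115.6 and 155.6.

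Among the ligands, *Sema3b*, a secreted semaphorin also known as a tumour suppressor gene of the lung, was steadiest in AT2CTRL, with 96.5, 99.6 and 99.6 CPM in replicates 1, 2 and 3. In AT2CAB it had 112.1, 133.5 and 104.1 CPM, so that the groups did not overlap. The means were 98.6 ± 1.75 and 116.6 ± 15.2 CPM (SD, n = 3), 1.18 times as high in AT2CAB. Its log2 fold change was 0.24 (standard error, SE, 0.12, 95% interval -0.039 to 0.52, edgeR adjusted p = 0.576). In the 4 libraries without Y-linked reads it was 0.34 (adjusted p = 0.224), 0.11 in the remaining pair and 0.15 without AT2CAB replicate 2. *Sema3b* was thus slightly higher in every AT2CAB library, by less than the test could call.

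*Sema3f*, whose product acts mainly through NRP2, had 16.6, 30.6 and 17.5 CPM in AT2CTRL and 25.2, 43.5 and 35.8 CPM in AT2CAB. AT2CTRL replicate 2 lay above AT2CAB replicate 1, so the groups overlapped. The means were 21.6 ± 7.86 and 34.8 ± 9.17 CPM (SD, n = 3). The log2 fold change was 0.69 (SE 0.28, 95% interval 0.060 to 1.32), the only ligand whose interval lay above 0, with an unadjusted p of 0.0354 and an adjusted p of 0.476 from edgeR. It was 0.56 in the 4 libraries (adjusted p = 0.498) and 1.11 in the remaining pair. Its unadjusted p was over 0.05 in 4 of the 6 fits that left out 1 library, with a log2 fold change of 0.53 without AT2CTRL replicate 1, 0.56 without AT2CTRL replicate 3, 0.51 without AT2CAB replicate 2 and 0.71 without AT2CAB replicate 3.

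The other 3 ligand genes lie on chromosome 5, and 2 of them, *Sema3a* and *Sema3e*, were the lowest of the 10 genes per exon length. *Sema3a*, the founding member of the class and a ligand of NRP1, had 5.02, 12.3 and 6.09 CPM in AT2CTRL and 12.0, 13.5 and 7.19 CPM in AT2CAB. *Sema3e*, the ligand of PLXND1, had 6.05, 13.5 and 11.8 CPM in AT2CTRL and 14.7, 24.1 and 10.5 CPM in AT2CAB. *Sema3c*, which binds both neuropilins, had 34.1, 62.1 and 60.8 CPM in AT2CTRL and 51.1, 86.5 and 55.0 CPM in AT2CAB. In all 3 genes the groups overlapped, with AT2CTRL replicate 1 lowest and AT2CAB replicate 2 highest. The log2 fold change was 0.48 for *Sema3a* (SE 0.37, 95% interval -0.36 to 1.32, edgeR adjusted p = 0.702), 0.65 for *Sema3e* (0.36, -0.18 to 1.48, adjusted p = 0.608) and 0.29 for *Sema3c* (0.27, -0.32 to 0.91, adjusted p = 0.751). In the 4 libraries the values were 0.51, 0.66 and 0.20 (adjusted p = 0.528, 0.291 and 0.756), and in the remaining pair 0.52, 0.80 and 0.69. Single libraries weighed heavily, since *Sema3a* had 0.24 without AT2CTRL replicate 1 and 0.96 without AT2CTRL replicate 2, *Sema3e* had 0.37 without AT2CTRL replicate 1 and 0.28 without AT2CAB replicate 2, and *Sema3c* had 0.057 and 0.025 without the same libraries. *Sema3a* and *Sema3e* have been associated with alveolar type I cells (AT1s), the flat gas-exchange cells that AT2s can form. Summed over 21 AT1 markers, the libraries had 5251, 5266 and 4144 CPM in AT2CTRL and 4713, 5638 and 5332 CPM in AT2CAB, with overlapping groups as well. Of these markers 16 of 21 had a log2 fold change above 0, with a median of 0.37, and none was called by edgeR, while DESeq2 called *Gramd2* and *Timp3* higher and *Cyp2b10* lower. The part of these markers in the values of *Sema3a* and *Sema3e* was not tested. The intervals of *Sema3a* and *Sema3e* include both no change and a change of more than 2-fold.

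Of the receptors, *Nrp1*, the co-receptor of SEMA3A and of VEGF-A, was the most abundant and had its lower values in AT2CAB. It had 661.6, 782.0 and 798.4 CPM in AT2CTRL and 597.7, 574.6 and 386.1 CPM in AT2CAB, and the groups did not overlap. AT2CAB replicate 3 was lowest and lay well under the other 2 libraries of its group. The means were 747.3 ± 74.7 and 519.5 ± 116 CPM (SD, n = 3), 1.44 times as high in AT2CTRL. The log2 fold change was -0.52 (SE 0.19, 95% interval -0.96 to -0.093), with an unadjusted p of 0.0228 and an adjusted p of 0.429 from edgeR. It was -0.40 in the 4 libraries (adjusted p = 0.0886), -0.78 in the remaining pair, -0.31 without AT2CAB replicate 3, -0.50 without AT2CTRL replicate 2 and -0.48 without AT2CTRL replicate 3. In these 3 fits with 1 library left out its unadjusted p was over 0.05. With Y-linked reads as a covariate it was -0.55 (edgeR adjusted p = 0.0392, against 0.0392 to 0.84 over all alternatives). Its size stayed under 2-fold there, and 1.26% of all genes were lower at that threshold.

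*Nrp2*, the co-receptor of SEMA3F and VEGF-C, was far lower. It had 13.0, 23.9 and 19.8 CPM in AT2CTRL and 20.4, 23.3 and 18.0 CPM in AT2CAB, with the AT2CAB values inside the range of the AT2CTRL values. The log2 fold change was 0.12 (SE 0.22, 95% interval -0.39 to 0.63, edgeR adjusted p = 0.887), 0.034 in the 4 libraries (adjusted p = 0.948) and 0.48 in the remaining pair. Its interval excludes a 2-fold change in either direction. Per kilobase of exon, the ratio of *Nrp1* to *Nrp2* was 70.1, 44.9 and 55.2 in AT2CTRL and 40.3, 33.9 and 29.4 in AT2CAB. The groups did not overlap in this ratio, which was not tested, and *Nrp1* made up 98.2 ± 0.385% of the neuropilin level in AT2CTRL and 97.1 ± 0.435% in AT2CAB (SD, n = 3).

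*Plxnd1*, the receptor of SEMA3E, had 26.6, 62.3 and 67.8 CPM in AT2CTRL and 82.2, 101.9 and 65.6 CPM in AT2CAB. AT2CAB replicate 3 lay just under AT2CTRL replicate 3, and AT2CTRL replicate 1 lay far below all other libraries. The log2 fold change was 0.67 (SE 0.32, 95% interval -0.068 to 1.41, edgeR adjusted p = 0.554). It was 0.54 in the 4 libraries (adjusted p = 0.112), 1.30 in the remaining pair and 0.35 without AT2CTRL replicate 1. With Y-linked reads as a covariate it was 0.76 (edgeR adjusted p = 0.0498, against 0.0498 to 0.79 over all alternatives), where 1.27% of all genes were higher at that threshold. *Plxnd1* and *Nrp1* were the 2 genes of the 10 that passed an adjusted p of 0.05 in that fit. At an unadjusted p under 0.05 from edgeR, the fit with the covariate had *Sema3b*, *Sema3e*, *Sema3f* and *Plxnd1* higher, with 7.97% of all genes, and *Nrp1* lower, with 10.7%. The 4 libraries had *Sema3b*, *Sema3e* and *Plxnd1* higher, with 6.26% of all genes, and *Nrp1* lower, with 7.28%. Both counts were made after seeing the data.

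*Plxna2*, an A-type plexin used with neuropilins, had 115.6, 155.6 and 152.9 CPM in AT2CTRL and 149.5, 126.1 and 433.7 CPM in AT2CAB. One library, AT2CAB replicate 3, set the difference. The log2 fold change was 0.74 (SE 0.43, 95% interval -0.23 to 1.72, edgeR adjusted p = 0.617), but -0.0021 without AT2CAB replicate 3 and -0.13 in the 4 libraries (adjusted p = 0.607). The remaining pair, which holds that library, gave 1.91. *Plxna1*, the A-type plexin that pairs with NRP1 for SEMA3A, had 103.3, 164.7 and 132.6 CPM in AT2CTRL and 134.6, 138.3 and 97.8 CPM in AT2CAB. These groups overlapped throughout, with a log2 fold change of -0.11 (SE 0.20, 95% interval -0.57 to 0.34, edgeR adjusted p = 0.880). It was -0.089 in the 4 libraries (adjusted p = 0.792) and -0.080 in the remaining pair, and its direction turned to 0.014 when counts were scaled by library size only, to 0.061 without AT2CTRL replicate 2 and to 0.066 without AT2CAB replicate 3. The interval of *Plxna1* excludes a 2-fold change in either direction.

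**Figure D2:**
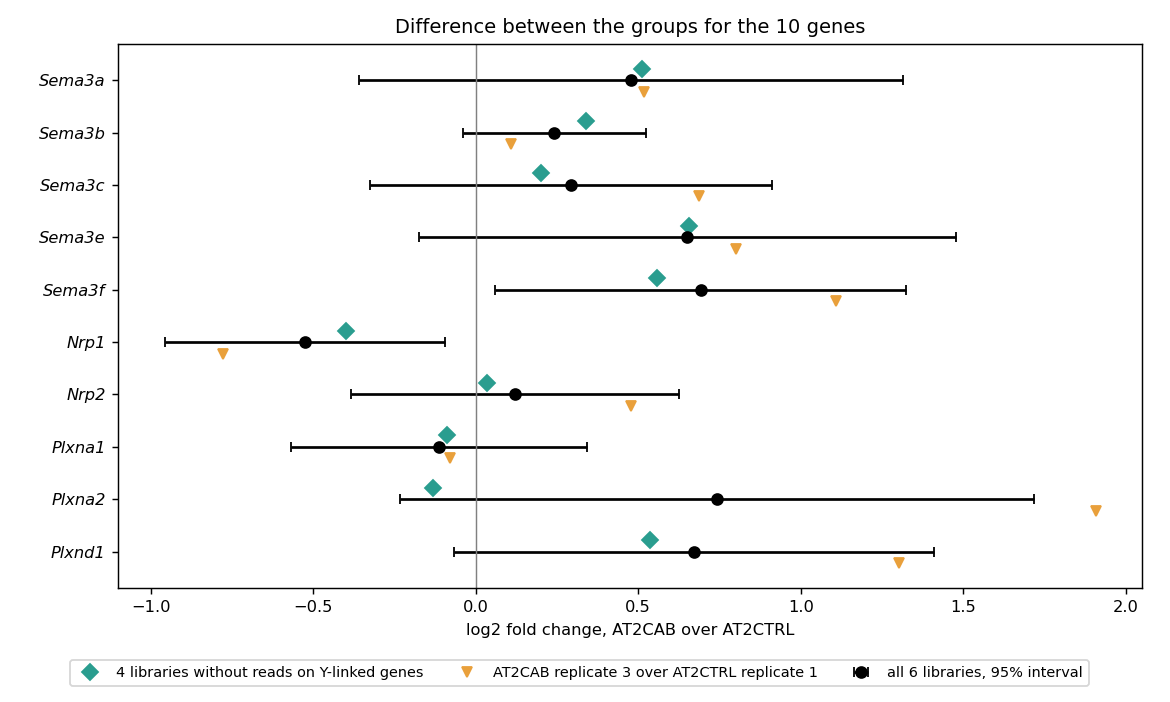
Log2 fold change of AT2CAB over AT2CTRL (horizontal axis) for each of the 10 genes (rows), with the 95% interval from edgeR over all 6 libraries (black), the value in the 4 libraries that lack Y-linked reads (green diamonds) and AT2CAB replicate 3 over AT2CTRL replicate 1 (orange triangles). The intervals of Sema3f and Nrp1 lie on one side of 0, and for Plxna2 the values of the 4 libraries (-0.13) and of the pair (1.91) lie on opposite sides of 0.

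Levels can be compared between genes only per exon length, here as CPM per kilobase. In AT2CTRL, *Nrp1* led with 126.2, followed by *Sema3b* (23.1), *Plxna1* (14.8), *Plxna2* (12.8), *Sema3c* (10.6), *Plxnd1* (7.56), *Sema3f* (6.36), *Nrp2* (2.33), *Sema3e* (1.52) and *Sema3a* (1.07). Between neighbours in this order, the ranges of the 3 AT2CTRL libraries stood apart at 3 steps, from *Nrp1* to *Sema3b*, from *Sema3b* to *Plxna1* and from *Sema3f* to *Nrp2*, and overlapped at the other 6. Sorted cells of both groups thus held more *Nrp1* RNA per length than RNA of any other of the 10 genes, and *Nrp2*, *Sema3e* and *Sema3a* were the lowest. The 5 semaphorins summed to 42.6 ± 6.33 CPM per kilobase in AT2CTRL and 54.5 ± 10.8 in AT2CAB, the neuropilins to 128.6 ± 13.2 and 90.3 ± 19.9, and the 3 plexins to 35.2 ± 8.27 and 47.2 ± 10.8 (SD, n = 3, sums not tested). Among these 5 semaphorins *Sema3b* had the most RNA, with 55.0 ± 7.48% of their sum in AT2CTRL and 50.7 ± 4.11% in AT2CAB.

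**Figure D3:**
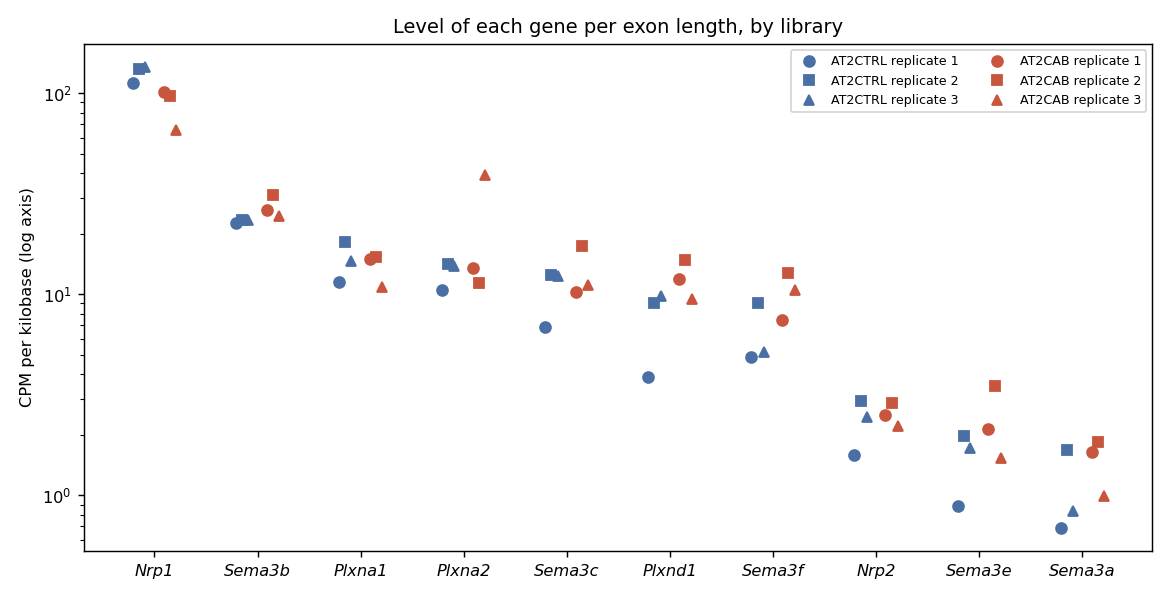
Level of each of the 10 genes as CPM per kilobase of exon (vertical log axis) in the 3 AT2CTRL libraries (blue) and the 3 AT2CAB libraries (red), with genes ordered by their AT2CTRL mean. Nrp1 lies above every other gene in all 6 libraries, and Nrp2, Sema3e and Sema3a lie at the low end.

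The genes varied between libraries of 1 group as well as between groups. All 5 semaphorins and *Plxnd1* were lowest in AT2CTRL replicate 1 and highest in AT2CAB replicate 2. *Nrp2* and *Plxna2* were lowest in AT2CTRL replicate 1 too, but highest in other libraries. No share over all genes was worked out for this order of libraries, so it cannot be set against a background. *Nrp1* took another course, highest in AT2CTRL replicate 3 and lowest in AT2CAB replicate 3. AT2CTRL replicate 1 was also lowest and AT2CAB replicate 2 highest in the sums of endothelial and mesenchymal markers. Other lists differed, with the immune sum lowest in AT2CAB replicate 3 and highest in AT2CAB replicate 1. The lymphatic, mesothelial and airway sums were lowest in AT2CTRL replicate 3 and highest in AT2CAB replicate 3. Summed over 12 endothelial markers, the levels were 371.1, 770.9 and 517.4 CPM in AT2CTRL and 664.4, 1102 and 744.3 CPM in AT2CAB, again lowest in AT2CTRL replicate 1 and highest in AT2CAB replicate 2. None of these markers was at 0, 12 of 12 had a log2 fold change above 0 with a median of 0.61, and none was called. At an unadjusted p under 0.05 from edgeR, 7 of the 12 stood higher and 0 lower, where 4.62% and 5.05% of all genes stood. Over 12 mesenchymal markers the sums were 203.0, 305.4 and 275.7 CPM in AT2CTRL and 371.9, 450.9 and 391.4 CPM in AT2CAB, without overlap, with 12 of 12 above 0, a median of 0.54 and no call. Here 5 of the 12 stood higher and 0 lower at that unadjusted p. In 5 of the 12 all AT2CAB values lay above all AT2CTRL values, as in 7% of all genes. The part of these markers in the values of the semaphorins and of *Plxnd1* was not tested, and in sorted bulk RNA fewer cells of a type and less RNA per cell cannot be told apart.

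The sum of the AT2 markers was lower in every AT2CAB library, as *Nrp1* was. It stood at 198711, 193516 and 197792 CPM in AT2CTRL and 176863, 154696 and 134533 CPM in AT2CAB, lowest in AT2CAB replicate 3 for both, while AT2CTRL replicate 1 was the highest of its group in the AT2 sum and the lowest in *Nrp1*, with 16 of 20 markers below 0, a median log2 fold change of -0.33, no call by edgeR and 1 marker, *Lyz2*, called lower by DESeq2. The part of this in the *Nrp1* value was not tested. Among the other lists, 15 immune markers summed to 80.2 to 96.2 CPM in AT2CTRL and 73.0 to 193.2 CPM in AT2CAB (14 of 15 above 0), 4 lymphatic markers to 17.3 to 30.1 and 22.5 to 60.9 CPM, 4 mesothelial markers to 10.5 to 23.1 and 20.1 to 54.9 CPM and 4 Schwann cell markers to 12.6 to 16.3 and 10.7 to 13.1 CPM. The 8 airway markers summed to 723.3 to 916.4 and 839.7 to 1220 CPM, with *Krt5*, the basal cell keratin, at 0 in all libraries. Of the 7 tested, 4 were above 0, with a median log2 fold change of 0.17. The ciliated cell gene *Tppp3* was the 1 marker called, higher in AT2CAB. *Foxj1* (0.61, edgeR adjusted p = 0.570) and *Cyp2f2* (-0.53, edgeR adjusted p = 0.190) of the same list were not called. The adult globins *Hbb-bs*, *Hbb-bt*, *Hba-a1* and *Hba-a2* were at 0, and the 6 erythroid genes summed to at most 6.90 CPM.

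**Figure D4:**
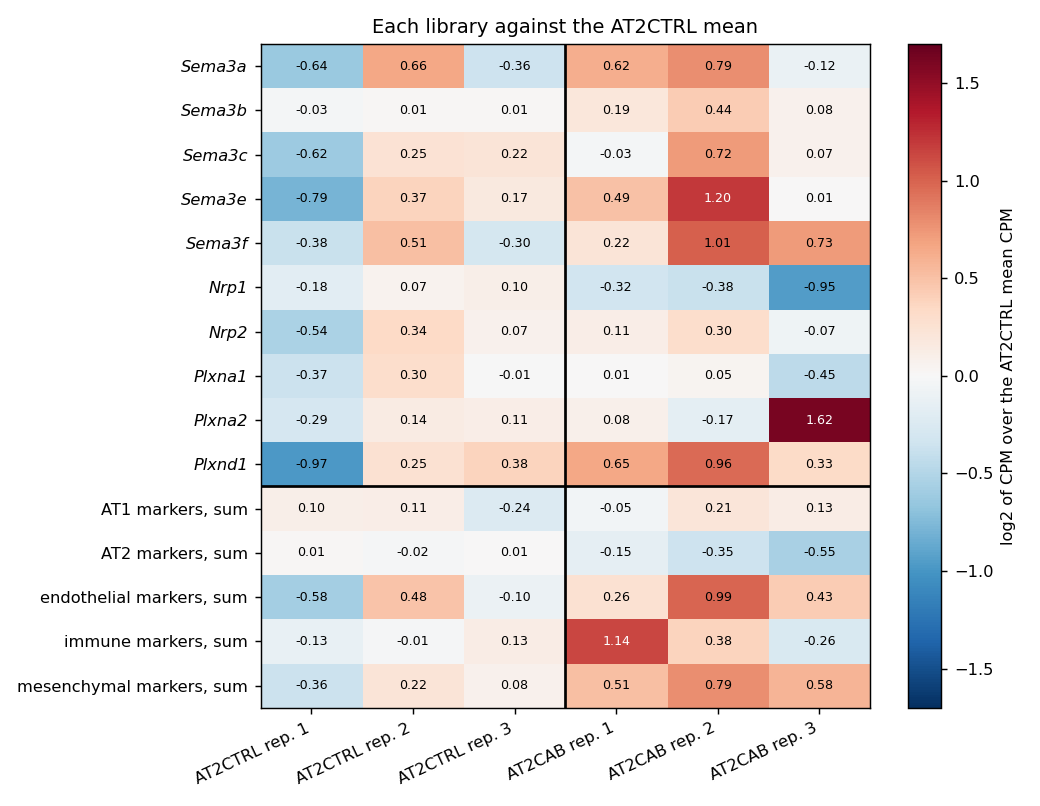
Log2 of the CPM of each library over the AT2CTRL mean (color, from blue for lower to red for higher, value printed in each cell) for the 10 genes (upper rows) and for sums of marker lists (lower rows), with libraries as columns and AT2CTRL on the left. The 5 semaphorins, Plxnd1 and the endothelial sum share their lowest value in AT2CTRL replicate 1 and their highest in AT2CAB replicate 2, and Plxna2 stands at 1.62 in AT2CAB replicate 3.

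As a description over the 6 libraries, the genes whose log2 CPM ran closest to *Plxna2* were *Gar1*, *Gsk3a* and *Atp8b1* (Pearson's r across libraries of 0.997, 0.994 and 0.992). They share with it the high value of AT2CAB replicate 3. Those closest to *Sema3f* were *Col4a4*, *Sh3tc2* and *Emcn* (0.994, 0.994 and 0.993). Of these, *Col4a4* is among the AT1 markers used here and *Emcn*, which encodes endomucin, among the endothelial markers. None of the 6 genes was called, and all points share library and depth. These r values are the highest in a search through all 16723 genes tested over 6 points. How high such a search runs between unrelated genes was not worked out, so no link is read from them.

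Of the other genes of the pathway, 63 were tested and none was called by edgeR or DESeq2. Fold changes were above 0 for 43 of the 63, against 8160 of all 16723 genes tested, with a median log2 fold change of 0.13 against -0.0096. At an unadjusted p under 0.05 from edgeR, 11 stood higher and 4 lower, where 4.62% and 5.05% of all genes stood. The remaining class 3 ligands resembled those above in size, with a log2 fold change of 0.66 (SE 0.30, adjusted p = 0.530) for *Sema3g* and 0.32 (SE 0.53, adjusted p = 0.869) for *Sema3d*. *Sema3g*, an endothelial semaphorin, had 11.8, 27.4 and 19.2 CPM in AT2CTRL and 23.7, 39.3 and 29.3 CPM in AT2CAB, with the same lowest and highest library as the 5 semaphorins. *Sema3d* had between 18 and 76 counts in a library. In the 4 libraries and in the remaining pair the log2 values were 0.48 and 1.31 for *Sema3g* and 0.076 and 0.79 for *Sema3d*.

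Semaphorins of classes 4 to 7, which are mostly bound to the membrane and bind plexins directly, lay on both sides of 0. Of 13 tested, 8 were above 0 and 5 below, with 5 higher and 2 lower at an unadjusted p under 0.05 (4.62% and 5.05% of all genes). At the upper end *Sema7a*, a GPI-anchored semaphorin, had 7.89, 10.97 and 6.36 CPM in AT2CTRL and 10.2, 14.4 and 30.3 CPM in AT2CAB, with a log2 fold change of 1.13 (SE 0.39, edgeR adjusted p = 0.416). At the lower end *Sema4f* had 143.9, 169.7 and 162.7 CPM in AT2CTRL and 129.1, 106.7 and 73.5 CPM in AT2CAB, without overlap, with a log2 fold change of -0.62 (SE 0.20, edgeR adjusted p = 0.368). *Sema4f* thus lay lowest in AT2CAB replicate 3, as *Nrp1* did. In the 4 libraries and in the remaining pair *Sema7a* had 0.55 and 1.94, and *Sema4f* had -0.46 and -0.97. The log2 fold changes of the 6 other plexins ran from -0.12 for *Plxna3* to 0.39 for *Plxna4* (-0.16 and 0.27 in the 4 libraries, 0.0080 and 0.79 in the remaining pair), and none had an unadjusted p under 0.05.

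Among 15 tested ligands and co-receptors that share neuropilins, 11 were above 0. At an unadjusted p under 0.05 from edgeR, 2 of the 15 stood higher and 0 lower, where 4.62% and 5.05% of all genes stood. The part of the endothelial markers in these values was not tested. *Pgf*, which encodes placental growth factor, had the highest log2 fold change, 1.34 (SE 0.62, edgeR adjusted p = 0.540), from 4, 10 and 8 counts in AT2CTRL and 14, 15 and 34 counts in AT2CAB. *Met*, the HGF receptor, had the lowest, -0.62 (SE 0.33, edgeR adjusted p = 0.598), with 270.7, 480.1 and 575.3 CPM in AT2CTRL and 386.4, 297.7 and 181.7 CPM in AT2CAB. Of the 4 convertases, *Furin* was lowest at -0.24 and *Pcsk5* highest at 0.68 (adjusted p = 0.549 and 0.355 from edgeR). *Furin* stood at 212.7, 238.1 and 214.5 CPM in AT2CTRL and at 198.8, 180.1 and 184.3 CPM in AT2CAB, without overlap. In the 4 libraries and in the remaining pair the log2 values were 0.77 and 2.63 for *Pgf*, -0.59 and -0.57 for *Met*, -0.22 and -0.21 for *Furin* and 0.65 and 0.80 for *Pcsk5*.

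Of 23 tested intracellular genes of plexin signaling, 14 were above 0 and 9 below, with a median log2 fold change of 0.055. Over all genes tested, 8160 were above 0 and 8563 below. *Limk1*, the kinase that inactivates cofilin, had 73.4, 74.4 and 75.7 CPM in AT2CTRL and 58.5, 50.3 and 49.3 CPM in AT2CAB, with little spread within a group. The groups did not overlap for *Limk1*. Its log2 fold change was -0.50 (SE 0.11, edgeR adjusted p = 0.186), -0.43 in the 4 libraries and -0.57 in the remaining pair. DESeq2 gave -0.49 (DESeq2 adjusted p = 0.0385), less than the 2-fold change that a call needs. *Dpysl2*, which encodes CRMP2, a microtubule-binding mediator of SEMA3A signaling, had 41.6, 30.7 and 19.4 CPM in AT2CTRL and 37.8, 55.6 and 100.5 CPM in AT2CAB, with overlap. Its log2 fold change was 1.08 (SE 0.38, edgeR adjusted p = 0.418), 0.94 in the 4 libraries, 1.27 in the remaining pair, and with Y-linked reads as a covariate 1.03 (edgeR adjusted p = 0.0356), the single pathway gene called in that fit, which called 0.646% of all genes higher.

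**Figure D5:**
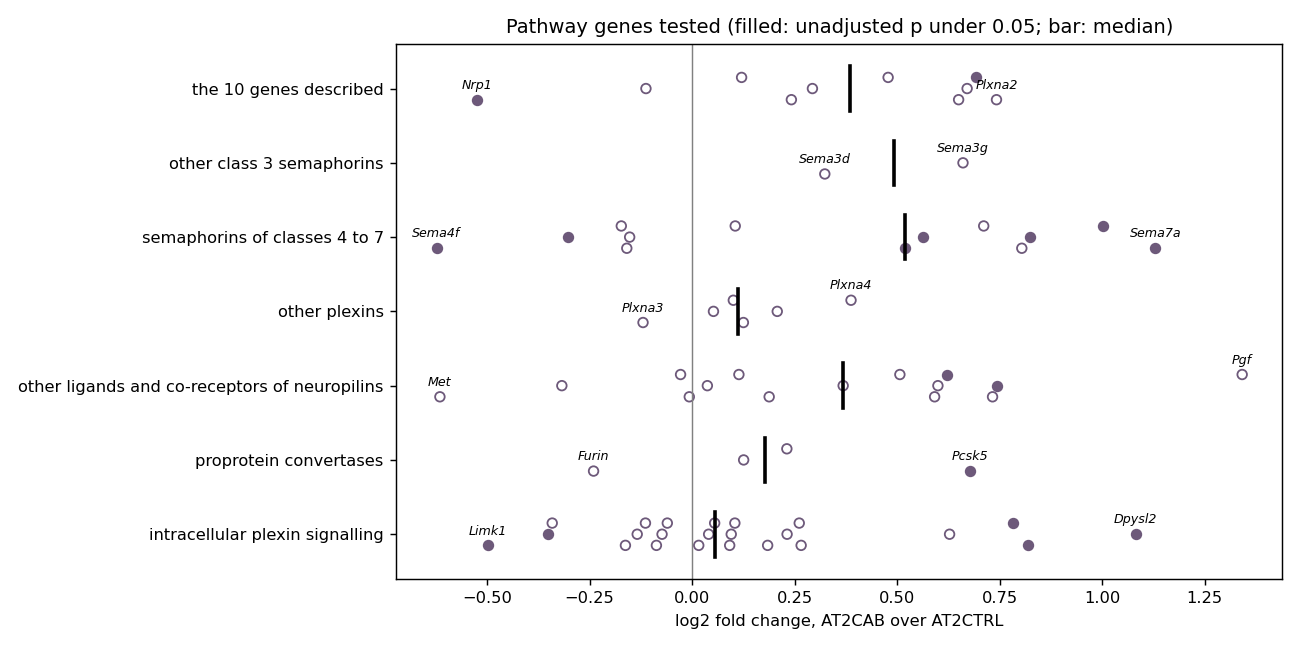
Log2 fold change of AT2CAB over AT2CTRL (horizontal axis) for each gene tested (points) in the 10 genes described and in 6 lists of other pathway genes (rows), with filled points for an unadjusted p under 0.05 and black bars for the median of each row. The genes of most lists lie on both sides of 0, from -0.62 to 1.34.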

How the data were processed

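Poly(A) RNA of sorted AT2CTRL and AT2CAB cells was sequenced from 3 mice of each group. The authors trimmed reads, aligned them to mm10 with Hisat2, dropped duplicate reads with the markdup tool of SAMtools and deposited raw read counts per gene from featureCounts v1.5.3, counted on exons, without strand, and with reads shared by overlapping genes dropped. Even values made up 56.9 to 60.8% of the counts from 1 to 20, so mates may have been counted separately, although the methods speak of fragments. Groups came from the sample labels, and all table columns were mapped. The 10 genes and all gene lists were chosen with earlier results of these data known.

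Counts were scaled by TMM and tested in edgeR 4.0.16 (R 4.3.3; quasi-likelihood test, minimum count 10, Benjamini-Hochberg adjustment over 16723 genes), although the methods name DESeq2, here an alternative (1.42.0) with limma-voom (limma 3.58.1). The standard error is the log2 fold change over the root of F. The scripts were tested on simulated data. Named are the 10 genes, pathway genes called by either tool, the highest and lowest fold change in each list, the 3 genes most like each of the 2 members with the largest absolute fold change, and BMP targets. With 3 mice a group an exact permutation test cannot go below p = 0.1, so none was used. Alternatives were other thresholds, tests, filters and scalings, age, a replicate block, a Y-linked covariate, 4 libraries, halved counts and each library left out.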

Additional observations from a re-analysis of the deposited data

How the results depend on the processing

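Of 170 alternative log2 fold changes of the 10 genes, 164 kept their direction and stayed uncalled, where a call needs both thresholds, and 6 turned. Single thresholds were crossed by *Nrp1* and *Plxnd1* (adjusted p = 0.0392 and 0.0498 from edgeR with the covariate for Y-linked reads), by *Sema3f* (1.03 without AT2CTRL replicate 2) and by *Plxna2* (1.05 without AT2CAB replicate 2). *Nrp2* was -0.094 to 0.32 with 1 library left out, and turned without AT2CTRL replicate 1. *Plxna1* was -0.27 to 0.066 with 1 library left out and 0.014 with library size only, and *Plxna2* was -0.0021 to 1.05 with 1 library left out and -0.13 in the 4 libraries without Y-linked reads. The remaining 7 genes kept their direction in every alternative run, but not their size: with 1 library left out *Sema3a* ranged from 0.24 to 0.96, *Sema3c* from 0.025 to 0.46, *Sema3e* from 0.28 to 0.93 and *Plxnd1* from 0.35 to 0.90. The cause was not tested. The median log2 fold change of all genes shifted from -0.0096 under TMM to 0.12 under library size alone (upper quartile 0.064, median of ratios 0.017). No alternative at both thresholds called any of the 10 genes. Without adjustment or a fold threshold, 1 was higher and 1 lower, and 11 pathway genes were higher and 4 lower, with 4.62% and 5.05% of all genes. The covariate for Y-linked reads called 1 pathway gene higher at both thresholds, with 0.646% of all genes. In counts chosen after seeing the data, 3 of the 10 were higher at an unadjusted p under 0.05 from edgeR in the 4 libraries (*Sema3b*, *Sema3e* and *Plxnd1*) and 4 with the covariate (these and *Sema3f*), against 1 (6.26% and 7.97% of all genes in those fits). With 1 library left out, 0 to 3 were higher (0 without AT2CTRL replicate 1, 3 without AT2CAB replicate 3) and 0 to 1 lower (0 without AT2CTRL replicate 2, AT2CTRL replicate 3 or AT2CAB replicate 3). No share over all genes was worked out for the fits with 1 library left out, so these counts cannot be set against a background. Fold changes above 0 numbered 7 to 9 over all alternatives.

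Libraries with the same replicate number came from different mice, and their deviations correlated at -0.24, 0.20 and -0.53. These values show no pairing by number. They cannot exclude it, because the 2 libraries with Y-linked reads lay at 1 end of the first principal component and carry different replicate numbers. Ages also differed under the same number, with 12 weeks in AT2CTRL and 16 in AT2CAB for replicate 1, and 16 and 12 for replicate 2. With the replicate number as a block 0 of the 10 genes and 0 pathway genes were called, with *Nrp1* at -0.55 (adjusted p = 0.635 from edgeR) and *Sema3f* at 0.71 (adjusted p = 0.255). At least 112 counts stood behind each value, and the intervals of *Sema3a*, *Sema3e*, *Sema3f*, *Plxna2* and *Plxnd1* run past 2-fold.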
